A study of Mus musculus with 3 samples.

Results

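Tra2β contacts with the nuclear RNAs Malat1 and Neat1 were read from iCLIP of adult mouse testis. Both genes were chosen by name, and they are 2 of the 78289 genes in the GENCODE vM39 annotation. The study mapped the RNA targets of Tra2β in testis of wild type adults, a mix of cell types. Tra2β is a splicing factor related to the SR proteins with a preference for purines. There was 1 group with 3 biological replicates (Tra2beta iCLIP 1, 2 and 3). By the paper's account, testes were minced to release germ cells, which were then irradiated with ultraviolet light. Each replicate was precipitated with a polyclonal anti-Tra2b antibody. No input, control antibody, mutant or RNA level library was used here, and comparisons were therefore drawn inside each library. More crosslinks can come from more RNA or from more binding, and these data cannot tell them apart.

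Malat1 and Neat1 are long non-coding RNAs that stay in the nucleus and are made from neighbouring genes. Malat1 gathers in nuclear speckles, bodies rich in splicing factors, and its mature end is made by RNase P cleavage, which also releases a small tRNA-like RNA. Neat1 is the scaffold of paraspeckles and is made as a short form and a long form, which share their start; the long form builds the paraspeckle.

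In GRCm39, Malat1 (ENSMUSG00000092341.7) lies on the minus strand at chr19:5845717-5853602 and is 7886 nt long. Neat1 (ENSMUSG00000092274.6) lies on the same strand at chr19:5874736-5897132 and is 22397 nt long. Each gene was tiled in 100 nt bins from its annotated 5′ end, giving 79 bins for Malat1 and 224 for Neat1. A crosslink is 1 unique cDNA at 1 nucleotide on the strand of the gene. Among the genes annotated inside Malat1, only Gm55521, a misc_RNA of 86 nt, is on its strand, and its 29, 34 and 48 crosslinks in replicates 1, 2 and 3 were kept in those of Malat1. The misc_RNA genes Gm55523, Gm55524 and Gm55525 inside Neat1 were treated alike.

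The sequences on which the result for Malat1 turns are given here 5′ to 3′ on the RNA strand, as DNA letters from GRCm39, with every GAA in capitals, because GAA is the core of the motif known for Tra2β. Bins 17 and 18 were the most crosslinked bins of Malat1, at chr19:5851903-5852002 and chr19:5851803-5851902. Bin 16, at chr19:5852003-5852102, adjoins them and was poorly crosslinked, and bin 78, at chr19:5845803-5845902, is the last whole bin of the gene. The 30 nt stretches from bin 19 (chr19:5851748-5851777) and bin 21 (chr19:5851539-5851568) were the most crosslinked of those bins, and the stretch from Neat1 bin 21 (chr19:5895102-5895131) is shown for contrast.
Malat1 bin 17: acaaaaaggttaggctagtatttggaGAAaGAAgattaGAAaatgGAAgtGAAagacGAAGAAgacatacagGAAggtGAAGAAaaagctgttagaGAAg
Malat1 bin 18: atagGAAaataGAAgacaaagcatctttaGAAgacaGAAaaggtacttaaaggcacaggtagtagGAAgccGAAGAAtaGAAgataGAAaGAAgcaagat
Malat1 bin 16: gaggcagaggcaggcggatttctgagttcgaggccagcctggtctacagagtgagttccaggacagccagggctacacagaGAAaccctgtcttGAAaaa
Malat1 bin 78: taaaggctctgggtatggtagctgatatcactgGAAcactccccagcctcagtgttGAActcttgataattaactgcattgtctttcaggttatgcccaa
Malat1 bin 19, stretch: aactttggatgccagcattcaagataggca
Malat1 bin 21, stretch: aGAAtgcctttGAAgagttaGAAGAAtatt
Neat1 bin 21, stretch: tcatagaggacaggcagtggggcaggacta

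The libraries held 348033, 619571 and 488719 crosslinks. Replicate 2 stood apart from the others. Only 24.1% of its crosslinks lay in annotated exons, against 38.8% and 49.96% in replicates 1 and 3, and the 12 germ cell markers (Ddx4, Prm2 and others) summed to 547 CPM (crosslinks scaled to a library of 1e6) there against 2583 and 3362. All 12 germ cell markers were crosslinked in all 3 libraries, as were 6 of 8 markers of Sertoli and Leydig cells. The sums of those 8 were 101, 67.8 and 92.1 CPM, with the Leydig cell hormone Insl3 at 18, 0 and 21 crosslinks, and without Insl3 they were 48.9, 67.8 and 49.1 CPM, highest in replicate 2. Amh was at 0 in all 3 libraries. The 4 genes of other tissues (Alb, Myh6, Gfap and Ins2) had 0, 2 and 0 crosslinks in sum. The part of these differences in the results below was not tested, and values without replicate 2 are given where it decided them.

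Malat1 was among the most crosslinked RNAs of the testis, and Neat1 carried few crosslinks. Malat1 had 1434, 6967 and 2450 crosslinks in replicates 1, 2 and 3, at 1067, 2085 and 1622 nucleotides. This was 4120, 11245 and 5013 CPM, or 0.412%, 1.12% and 0.501% of each library. Replicate 2 was the highest by far, and replicates 1 and 3 lay close together. By mean CPM Malat1 ranked 2 of the 11536 genes with exonic crosslinks in all 3 libraries and 1 of the 2367 lncRNA genes among them. Per length, it had 861 ± 492 CPM per kb (SD, n = 3), or 579 ± 80.1 without replicate 2, and ranked 17, where the median gene had 2.39. It ranked 2 among the lncRNA genes by that measure. With each crosslinked position counted once, in the library total too, its density was 435 ± 26.9 CPM per kb.

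Neat1 had 34, 60 and 31 crosslinks, or 97.7, 96.8 and 63.4 CPM. The exact 95% intervals for counting error were 67.7 to 137, 73.9 to 125 and 43.1 to 90.0 CPM, so the libraries overlapped. Its density was 3.84 ± 0.872 CPM per kb (n = 3), above the median gene, with rank 3927 of 11536. The density of Malat1 over that of Neat1 was 120, 330 and 225 in replicates 1, 2 and 3, a mean log2 ratio of 7.69 ± 0.74 (n = 3). It was above 0 in 3 of 3 libraries, and the two-sided exact sign-flip test gave p = 0.25, the smallest that 3 libraries allow. The opposite strand held 1, 0 and 0 crosslinks over Malat1 and 0, 2 and 0 over Neat1, so nearly all tags over both genes were on the strand of the RNA.

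Replicate 2 was higher than the other libraries for Malat1 and lower for most genes. Its CPM over the mean of replicates 1 and 3 was 2.46 times for Malat1 and 1.20 times for Neat1. Over the 897 genes with at least 100 crosslinks in all and 10 in each library, the median log2 ratio was -1.47, and over the 34 lncRNA genes among them it was -0.05. Both RNAs thus lay high in that order, at percentiles 98.3 and 93.2.

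Crosslinks on Malat1 gathered in 1 stretch of 500 nt near its 5′ end, made of bins 17 to 21. A bin was called raised or lowered when a two-sided exact binomial test against the rest of the gene, by length, reached an adjusted p below 0.05 and pointed the same way in each of the 3 libraries, after Benjamini-Hochberg adjustment over the 52907 bins of 446 tested genes. Of the 79 bins of Malat1, 5 were raised (6.33%), where 0.234% of all tested bins were raised and 1.73% of the bins of the 7 genes with at least 300 crosslinks in each library. The 15 raised bins of those 7 genes include the 5 of Malat1. Odf2 and Nasp, with 7 raised bins each, had more. By share of bins raised, Rn18s-rs5 (21.05%), mt-Rnr2 (12.5%), Tmco5 (9.375%), Nasp (8.64%), Prm1 (8.33%) and Hsp90b1 (6.45%) were above Malat1. In single libraries 9, 13 and 12 bins of Malat1 were raised. The test treats each cDNA as independent, so its p measures counting error within a library and not the spread between replicates.

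The 5 raised bins, 17 to 21, were neighbours and formed a single run, nt 1601 to 2100 of the gene (chr19:5851503-5852002). The run held 252, 3246 and 460 crosslinks in replicates 1, 2 and 3. This was 17.6% (exact 95% interval 15.6 to 19.6), 46.6% (45.4 to 47.8) and 18.8% (17.2 to 20.4) of the crosslinks of Malat1 on 6.34% of its length. The mean share was 27.7 ± 16.4% (n = 3) and 18.2 ± 0.850% without replicate 2. Leaving out any 1 library kept all 5 bins and added 0 to 2 further bins. It could only keep or add calls, because a call needed every library and each was adjusted on its own. Fewer calls within the run were left under other settings: 300 of its 500 nt stayed raised with each crosslinked position counted once, 200 nt against the 10 bins on each side and 200 nt in 50 nt bins. In 200 nt bins, 800 nt were raised and 400 nt of these lay in the run, so raised sequence was then also found outside it. With positions counted once, the run held a mean of 16.4 ± 3.13% of the crosslinked positions of Malat1.

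Bin 18 was the highest in mean share, with 70, 1285 and 95 crosslinks, or 4.88%, 18.4% and 3.88% of each library's Malat1 crosslinks (largest adjusted p of the exact binomial tests 1.76e-17). Bin 17 followed with 56, 1154 and 88 crosslinks (4.70e-10). Both are the purine-rich bins printed above, with 11 GAA in bin 17 and 10 in bin 18. Bin 19 had 51, 427 and 104 crosslinks, bin 20 had 37, 253 and 83, and bin 21 had 38, 127 and 90. The order within the run differed between libraries: bin 18 was first in replicates 1 and 2, and bin 19 was first in replicate 3. Bin 19 lacked GAA in its most crosslinked 30 nt, which held 17, 235 and 37 crosslinks, while that of bin 21 held 4 GAA and 30, 79 and 55 crosslinks.

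Some bins outside the run differed between libraries. Bin 15 held 5.70% of the Malat1 crosslinks of replicate 2 and 1.88% and 1.102% of those of replicates 1 and 3. Bin 28 went the other way, with 49 and 78 crosslinks in replicates 1 and 3, or 3.42% and 3.18%, and 34, or 0.488%, in replicate 2. Neither was called.

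**Figure D1:**
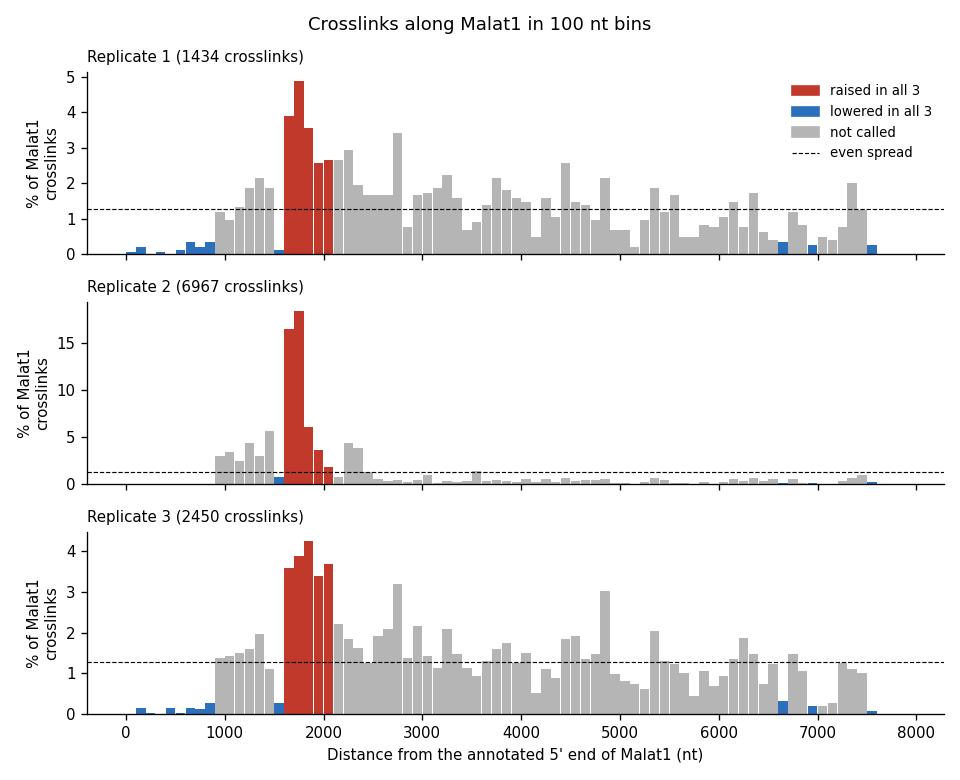
Share of each library's Malat1 crosslinks (percent, vertical axis, with a separate scale for each library) in 100 nt bins by distance from the annotated 5′ end (nt), with 1 panel for each replicate and no averaging. Red bins were raised and blue bins lowered in all 3 libraries; the 5 red bins held 17.6%, 46.6% and 18.8% of the crosslinks.

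Malat1 also had 16 lowered bins (20.3%), where 0.0473% of all tested bins were lowered and 2.88% of those in the 7 deeply crosslinked genes. Those shares rest on 25 lowered bins, and they include the 16 of Malat1. The others were 6 of the 19 bins of Rn18s-rs5 and 3 of the 16 of mt-Rnr2. A bin can be called lowered only in a gene with many crosslinks, and Malat1 was the most crosslinked of all but 1. The first 9 bins, nt 1 to 900, held 20, 10 and 24 crosslinks. Of the 23 annotated transcripts of Malat1, 12 start at the same nucleotide, 5852699, which is nt 904, so those bins lie before the commonest annotated start. The last 4 bins, nt 7501 to 7886, were lowered as well, with 4, 16 and 2 crosslinks. The last 300 nt held 0, 1 and 0, where a count of 0 allows up to 0.209% of the crosslinks in replicate 1 and 0.122% in replicate 3. Taken from the commonest start, Malat1 had 4 raised and 8 lowered bins.

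Bin 16, the lowered bin next to the run, had 2, 52 and 7 crosslinks, or 0.139%, 0.746% and 0.286%, against 56, 1154 and 88 in bin 17. Its sequence is repeated in the genome: 79.0% of the 30-mers that start in it occur elsewhere in GRCm39, with a median of 13676 copies. In bin 15 the share was 44.0% and in bin 65 it was 43.0%, and in bins 17 to 21 and all other lowered bins it was 0. Reads from such sequence can be lost in mapping, and the part of this in the low count of bin 16 was not tested. With bins that hold over 10% of repeated 30-mers left out, the same 5 bins were raised and the other 15 bins were lowered.

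Neat1 had no bin that was raised or lowered in all 3 libraries (0 of 224) by the exact binomial tests, nor any at an unadjusted p under 0.05. In single libraries 1, 3 and 0 bins were raised, and at 31 to 60 crosslinks a library could show only large rises. Even an empty bin could not be called lowered at that depth, so the absence of lowered bins says nothing about Neat1. No crosslink fell in 199, 188 and 198 of its bins, and 4 bins had crosslinks in all 3 libraries. Bin 21, with 2, 2 and 1 crosslinks, and bin 28, with 1, 2 and 2, were among these. The highest single count was 7, in bin 17 of replicate 2, where replicates 1 and 3 had 0.

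The short form of Neat1 carried most of its crosslinks. This form, the transcript Neat1-202 of 3180 nt (chr19:5892327-5895506), is also contained in the long form, so its crosslinks can come from either. It held 22, 38 and 19 crosslinks, and the other 19217 nt of the gene held 12, 22 and 12. These were 64.7%, 63.3% and 61.3% of the crosslinks of each library. Per nt, the short form had 11.1, 10.4 and 9.57 times the density of the rest, a mean log2 ratio of 3.37 ± 0.11 (n = 3), and the shares of the libraries differed by less than their counting error (exact 95% interval 46.5% to 80.2% in replicate 1). The 17591 nt found only downstream of the short form still had 12, 21 and 11 crosslinks, and the 1626 nt before it had 0, 1 and 1.

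**Figure D2:**
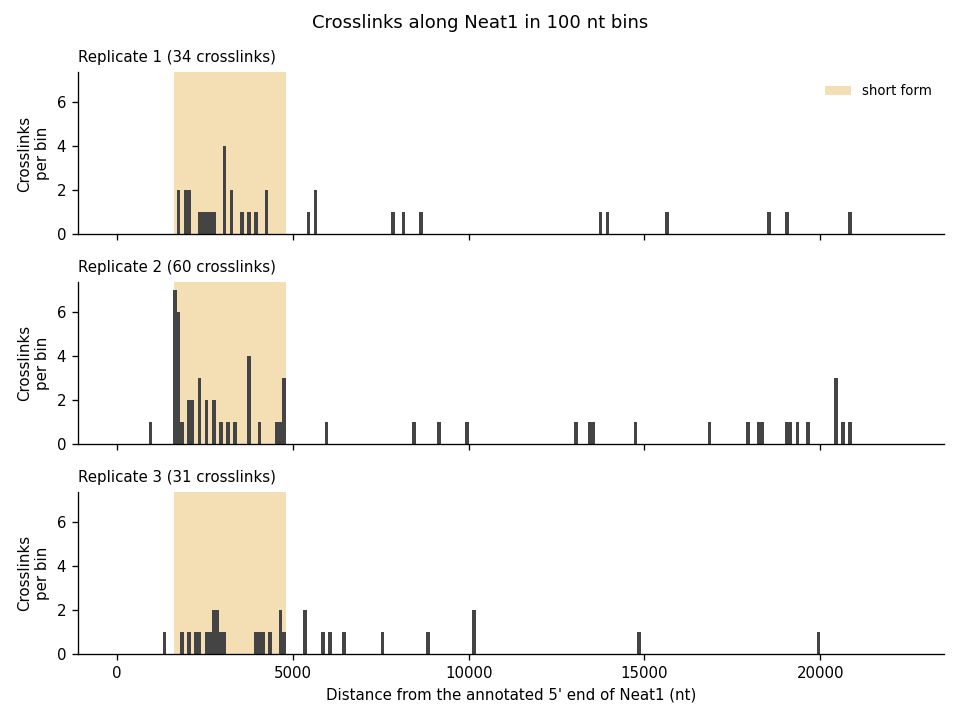
Number of crosslinks in 100 nt bins along Neat1 by distance from the annotated 5′ end (nt), with 1 panel for each replicate on a common scale. The shaded part is the short form, which held 22 of 34, 38 of 60 and 19 of 31 crosslinks.

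Both RNAs were more crosslinked on the 5′ side of their midpoint. The 5′ side of Malat1 held 62.1%, 87.0% and 60.1% of its crosslinks (mean log2 ratio of 5′ over 3′ density 1.35 ± 1.21, n = 3). The largest adjusted p of the exact binomial tests, each made within a library, was 7.37e-19. Without replicate 2 the mean log2 ratio was 0.65 ± 0.09, where a call cannot be lost because each library was tested on its own. With each crosslinked position counted once the mean log2 ratio was 0.64 ± 0.42 and stayed called. The 5′ side of Neat1 held 82.4%, 71.7% and 93.5% (2.47 ± 1.28, n = 3), with a largest adjusted p of 0.00218 in the exact binomial tests within a library. Such a call was common: 18.2% of the 446 tested genes were higher on the 5′ side in all 3 libraries and 13.0% on the 3′ side, with a median log2 ratio of 0.26. The short form of Neat1 lies wholly on its 5′ side and gave 22, 38 and 19 of the 28, 43 and 29 crosslinks there. The 3′ side had 6, 17 and 2. The call for Neat1 is therefore not separate from the result for its short form.

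The 3 libraries ranked the bins of Malat1 much alike. Across its 79 bins, which share the RNA and its base composition, Pearson's r was 0.90 between replicates 1 and 3, 0.67 between 1 and 2 and 0.58 between 2 and 3, and Spearman's rho was 0.89, 0.78 and 0.77. With the 5 raised bins left out, r was 0.87, 0.44 and 0.32 and rho was 0.87, 0.74 and 0.73. All these values include the first 9 and last 4 bins, which were low in all 3 libraries, and none was computed without them. The order of the bins was thus alike in all 3 libraries while the sizes differed in replicate 2. All 3 libraries had crosslinks at 317 single nucleotides of Malat1, which were 29.7%, 15.2% and 19.5% of the crosslinked nucleotides of each, and 95 of them were in the raised run. The most crosslinked nucleotide was the G at nt 1766 (chromosome 19, position 5851837), with 8, 93 and 15 crosslinks. It is the G of the GAA that stands before gcc in the sequence of bin 18.

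**Figure D3:**
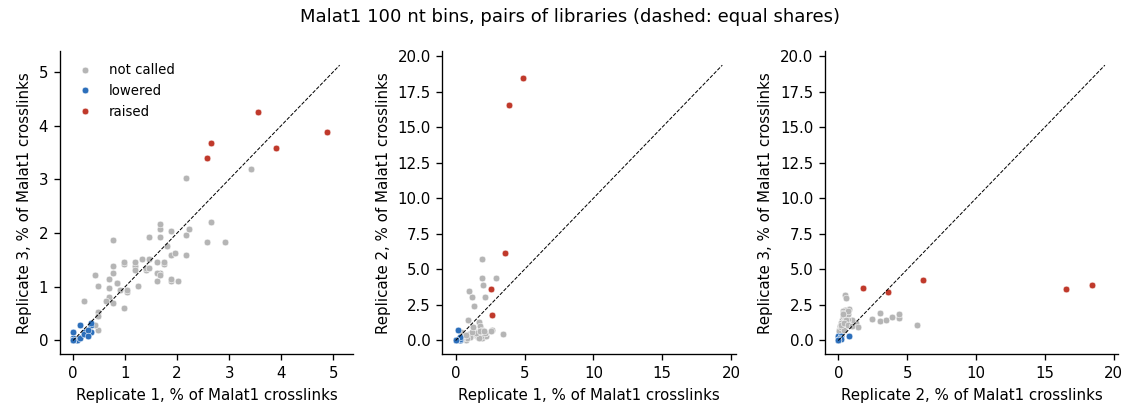
Share of Malat1 crosslinks (percent) in each of the 79 bins in pairs of libraries; each point is a bin, coloured by its call, and the dashed line marks equal shares. Replicates 1 and 3 lie along the line (r = 0.90), and bins 17 and 18 stand far above it in replicate 2 at 16.6% and 18.4%.

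Neat1 shared no single nucleotide between all 3 libraries. To set RNAs of different depth side by side, the chance that crosslinks from different libraries fall in the same bin was divided by that for an even spread. This between-library concentration was 1.92 ± 0.351 for Malat1 (mean and SD over 3 pairs of libraries) and 2.67 ± 0.461 for Neat1. Its median over the 446 tested genes was 2.06, and Malat1 lay at percentile 45.3 and Neat1 at percentile 68.4. At single nucleotides it was 4.27 ± 0.219 for Malat1, and for Neat1 it rested on 1 pair of crosslinks. In the pair without replicate 2 it was 1.53 for Malat1 and 2.55 for Neat1.

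The raised run of Malat1 was richer in purines than the rest of the RNA. Its 500 nt were 68.4% purine and 44.0% A, with 66.0 GAA per kb, whereas the lowered bins were 48.8% purine with 17.7 GAA per kb and the 58 bins not called 53.4% with 23.3. Within the run, bins 17, 18 and 19 were 78%, 76% and 70% purine, and bins 20 and 21 were 59% each. Some bins not called were above those last, such as bin 24 at 71%. GAAGA, which holds GAA, occurs at 25 places on the RNA strand of Malat1; 13 were in the raised run, 12 in bins not called and 0 in lowered bins. Across the 78 whole bins, Spearman's rho of the share of crosslinks with the purine content was 0.38, 0.61 and 0.40, and with the number of GAA it was 0.32, 0.37 and 0.33.

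A GAA started within 30 nt of 78.5%, 91.9% and 79.4% of the crosslinks of Malat1, and of 72.5% of all its nucleotides. The ratio of these shares, the GAA ratio, was 1.08, 1.27 and 1.09 (mean 1.15 ± 0.104, n = 3). Without replicate 2 the mean was 1.09 ± 0.0084. Malat1 has 24.9 GAA per kb, and since most of its nucleotides lie near one the ratio had little room to rise. Its mean ratio over all 3 libraries was that of the median gene (1.15, with 431 of 446 genes above 1). GAAGA, present near 14.2% of its nucleotides, was near 29.7%, 61.4% and 28.2% of the crosslinks, a ratio of 2.10, 4.34 and 2.00. Outside the raised run the GAAGA ratio was 1.70, 3.24 and 1.55, above 1 in 3 of 3 libraries.

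Among the 315 pentamers found at 10 or more places in Malat1, GAAGA had the highest mean ratio, 2.81 ± 1.32 (n = 3). GATAG (2.80), AAGAT (2.65), ACAGG (2.60) and AGACA (2.54) followed, each above 1 in 3 of 3 libraries. Several of these overlap each other or GAAGA in the raised run, and their SDs were larger than the steps between them, so their order was not resolved. Without replicate 2 the mean ratios of these 5 pentamers, in the same order, were 2.05, 1.94, 2.00, 1.54 and 1.78. GAAGA was then still the first of the 315, and ACAGG was at rank 20. TTTTT, a run of U in the RNA, ranked 193.

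Neat1 is poor in GAA, at 13.4 per kb, which is percentile 0.897 of the tested genes, and its GAA ratio was near 1 in the window of 30 nt on each side. A GAA was within 30 nt of 55.9%, 51.7% and 61.3% of crosslinks and of 56.1% of all nucleotides, a GAA ratio of 0.996, 0.921 and 1.09 (1.00 ± 0.0860, n = 3). The exact intervals, such as 37.9% to 72.8% in replicate 1, were too wide to show a ratio of the size found in Malat1. The log2 difference in GAA ratio between both RNAs was 0.12, 0.46 and 0.0026 (0.19 ± 0.24, n = 3, two-sided exact sign-flip p = 0.25), smaller than its SD. Without replicate 2 its mean was 0.061 ± 0.083. Within 10 nt the GAA ratio was 1.40 ± 0.140 for Neat1 and 1.39 ± 0.315 for Malat1, and the log2 difference turned to -0.035, so no difference between both RNAs was established. With GAAGA in place of GAA, the ratio of Neat1 was 1.71 ± 0.620, from 4, 4 and 2 crosslinks near GAAGA. The exact intervals of these shares, such as 3.3% to 27.5% in replicate 1, all held the 4.85% of its nucleotides near GAAGA. The leading pentamers of Neat1 were GTGCG with a mean ratio of 3.92, GGGGC with 3.27, CTAGG with 3.19, CACTA with 3.06 and then CGGGG with 2.75, and GAAGA ranked 81 of 790; with 125 crosslinks in all, these ranks are a description only.

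**Figure D4:**
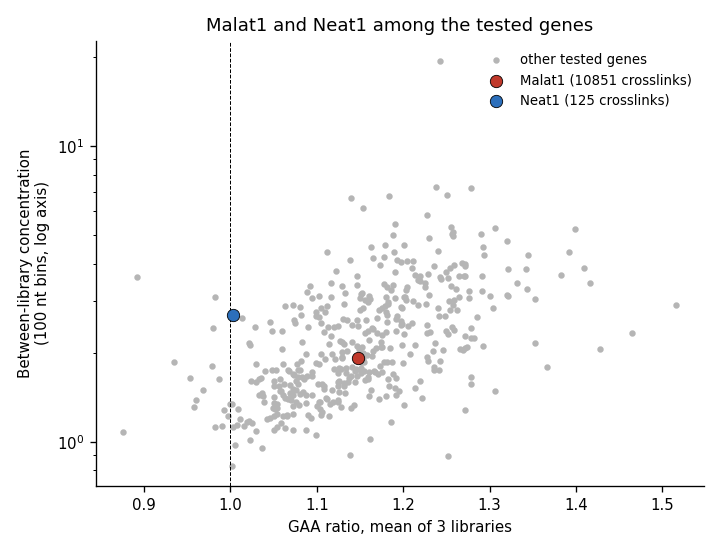
GAA ratio (mean of 3 libraries, horizontal axis) and between-library concentration in 100 nt bins (log axis) of the 446 tested genes; each point is a gene, and the dashed line marks a GAA ratio of 1. Malat1 is near the middle of both measures (1.15 and 1.92), and Neat1 has a GAA ratio of 1.00, lower than most genes, in the window of 30 nt; within 10 nt its ratio was 1.40.

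At the crosslinked nucleotide itself, Malat1 had U (T in DNA letters) in 51.4%, 29.7% and 48.3% of crosslinks, and 28.3% of the gene is T. Uridine is the base that ultraviolet light crosslinks most readily. Replicate 2 had the smallest share of U, and in it 27.3% of crosslinks were on A against 13.0% and 16.7% in replicates 1 and 3. This held outside the raised run too, where U took 52.9%, 35.5% and 51.4%. In the 444 other tested genes, U took 38.9%, 33.1% and 39.7%, so replicate 2 was lowest there as well.

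The G of a GAA was the crosslinked nucleotide in 5.09%, 7.95% and 5.80% of Malat1 crosslinks, and 2.49% of its nucleotides are such a G. With GAA starting 1 nt before the crosslink, the shares were 1.395%, 3.98% and 1.67%. The start at the crosslink itself was the most frequent offset in replicates 1 and 3, and a start 6 nt downstream, at 9.90%, was in replicate 2. Relative to an even spread, the G of GAA was crosslinked 2.05, 3.20 and 2.33 times as often in Malat1 and 2.01, 1.36 and 2.42 times in the 444 other genes. Malat1 was close to the other genes in replicates 1 and 3 and above them in replicate 2. Outside the raised run of Malat1 the G of GAA took 4.15%, 4.62% and 4.32% of crosslinks, where 2.21% of nucleotides are such a G. Replicate 2 was thus close to replicates 1 and 3 there.

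**Figure D5:**
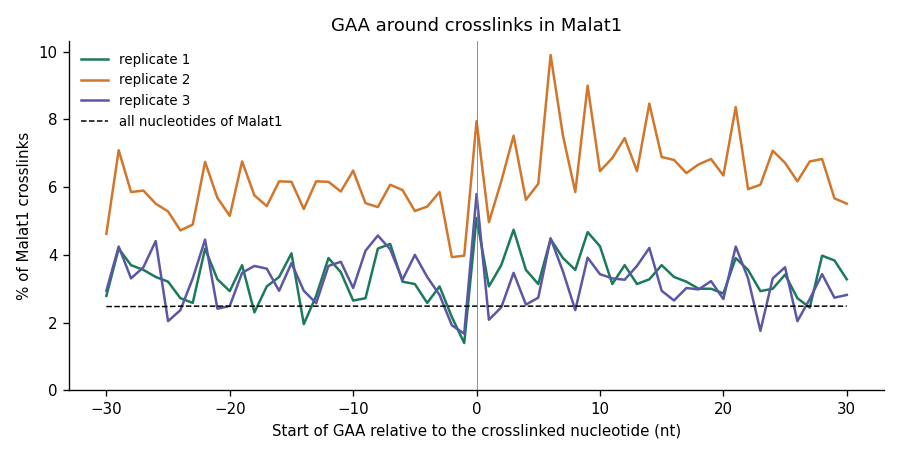
Share of Malat1 crosslinks (percent) with a GAA starting at each offset (nt) from the crosslinked nucleotide, negative upstream, for the 3 replicates; the dashed line is the share over all nucleotides of Malat1. Each library has a step up at offset 0, to 5.09%, 7.95% and 5.80%, beside low values at -1.

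The lists of 20 other RNAs known as long non-coding and of genes for proteins of the same bodies held no gene as dense in crosslinks as Malat1. Of the 20 RNAs, 12 had crosslinks in all 3 libraries; 2 could be tested in bins, and neither had a raised bin. Their highest density was that of Tug1, 10.1 CPM per kb, which the annotation used here types as protein coding, followed by Gas5 with 5.24, and these 2 of 20 were above Neat1. Of 12 genes for paraspeckle proteins, 11 had crosslinks in all 3 libraries, with a median of 7.60 CPM per kb; Sfpq, a paraspeckle core protein, had 15.3, 19.2 and 24.4. All 14 genes for nuclear speckle proteins had crosslinks in all 3 libraries, with a median of 12.9 CPM per kb; Son, a scaffold protein of speckles, had 22.7, 12.8 and 40.7. None of the 2 and 7 genes of these lists that could be tested had a raised bin.

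The genes most like each RNA across the 3 libraries, by the distance between log2 CPM centred on its mean over 896 genes, were 4930432E11Rik (distance 0.158), Gata3os, 4930500H12Rik, 4930523C07Rik and Gm25099 for Malat1. For Neat1 they were Bicd2 (0.0569), Zfp219, Rnf168, Trim41 and Gpatch2. With 3 libraries this likeness mostly says how replicate 2 compared with the others.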

How the data were processed

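The 3 libraries of 1 group were analysed. The study ran the iMAPS pipeline; the submitters' processing notes name Trim Galore 0.6.7, Bowtie 1.3.1, STAR 2.7.9a, UMI-tools 1.1.2 and mm39 (GRCm39), with no roles. The deposited values are whole-number counts of unique cDNAs for each crosslinked nucleotide and strand, not normalised or pooled. What was done with multi-mapping reads was not given in the sources used here. A shift of 1 nt in the deposited files would move the offsets of GAA.

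Genes and transcripts came from GENCODE vM39 and sequence from GRCm39. Bins of 100 nt covered the whole gene of Malat1 and Neat1 and the joined exons of the other genes with at least 30 exonic crosslinks in each library and 1000 nt of exon. Python 3.11.15, numpy 2.4.6 and SciPy 1.17.1 were used. The bin test was tried on simulated crosslinks, drawn independently and spread evenly outside the bins made higher. Real crosslinks can pile up at single nucleotides, which that simulation does not cover. Groups came from the sample titles. By rule, the bins named were those called as raised, ranked by mean share, with the 30 nt window holding the most crosslinks; pentamers needed 10 places. Bins 15, 16, 24, 28, 65 and 78 of Malat1 and bins 17, 21 and 28 of Neat1 fall outside that rule and were chosen after their values were seen. Intervals are 95% Clopper-Pearson intervals and a count of 0 allows 3 counts. Both cover counting error only, as do the p-values of the exact binomial tests. Motifs were searched on the RNA strand alone. The short form of Neat1 was taken as Neat1-202, which starts 1626 nt downstream of the 5′ end of the gene, since no short annotated transcript starts at that end. The members and lists were chosen with earlier results of these data known. Alternatives changed the bin length and start, the weight of a position, the threshold, the reference of a bin, the scaling, the motif and its window, and left out libraries and the highest bins; the start of Malat1, repeated sequence, the share of the raised run and the pentamers without replicate 2 were added after seeing the data.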

Additional observations from a re-analysis of the deposited data

How the results depend on the processing

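Of 128 values recomputed under alternatives, 103 kept their direction and stayed within the replicate spread or within 1.5 times the count. These include the counts of called bins of Neat1, which were 0 and stayed 0 at its low depth. They also include means with 1 library left out, which by arithmetic stay within 1 SD of the mean of all 3. Calls of the 5′ side cannot be lost that way either. Counts of bins were compared whatever the bin length, so 4 raised bins of 50 nt and 4 of 200 nt both passed as kept. Malat1 had 5 raised and 16 lowered bins. It had 10 lowered bins of 200 nt, 3 raised and 8 lowered with each crosslinked position counted once, 2 raised and 4 lowered against the 10 bins on each side, and 8 lowered when taken from the commonest annotated start; with positions counted once or against the neighbouring bins, all those called were among the bins called before. Density scaled to crosslinks in exons was 2845 CPM per kb for Malat1 and 11.6 for Neat1, and scaled to crosslinks in genes 4.72 for Neat1. The log2 density ratio was 6.80 with positions counted once. The GAA ratio was 1.39 for Malat1 and 1.40 for Neat1 within 10 nt; with AGAA it was 1.45 for Malat1, and with GAAGA 2.81 and 1.71. The log2 difference of both RNAs turned to -0.035 within 10 nt and was 0.51 with AGAA and 0.68 with GAAGA. Only 4, 4 and 2 crosslinks of Neat1 lay near GAAGA. The cause was not tested. Concentration at single nucleotides was 4.27 for Malat1 and 4.01 for Neat1, and 1.41 for Malat1 with positions counted once. The log2 ratio of the short form of Neat1 over the rest was 2.95 without its 5 highest bins. With each library left out in turn, the GAA ratio of Neat1 ranged from 0.958 to 1.04, and concentration from 1.53 to 2.21 for Malat1 and from 2.29 to 3.18 for Neat1. No paired analysis was possible because all 3 libraries belong to 1 group. Depth limits what can be seen on Neat1, since 31 to 60 crosslinks per library leave most of its bins empty.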
